A study of Drosophila melanogaster with 6 samples.

Results

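Trimethylation, dimethylation and monomethylation of lysine 4 of histone H3 (H3K4) mark active promoters and enhancers, and the enzymes that set and remove them were followed in larval brains from a cross that brings in a UAS-DNMT3L transgene. The members are 8 genes chosen by function, with earlier results of these data known, as enzymes of the mark whose absence DNMT3L binds in mammals plus ash1, of 17737 genes in the deposited table: the methyltransferase genes trx, trr and Set1, their shared subunit gene ash2, the trithorax group methyltransferase gene ash1, the demethylase gene Utx of the trr complex, and the H3K4 demethylase genes Kdm5 and Su(var)3-3. All 8 were found, Kdm5 under its older symbol lid through its gene ID, and all 8 passed the filter on low counts. RNA was sequenced from larval brains of Drosophila melanogaster in the third instar, with 3 libraries in each of 2 groups. DNMT3L brains came from a cross of elavC155-Gal4 to a w/w stock with P(UAS-DNMT3L,w+) over Cyo and TM2 over TM6B. Control brains were labelled elavC155-Gal4 alone, so that both groups have the driver, but its copy number is not given. elavC155-Gal4 expresses the yeast activator Gal4 in neurons from the elav locus, and Gal4 turns on genes placed behind a UAS sequence. Cyo, TM2 and TM6B are balancer chromosomes of that stock. The labels name no selection of larvae by balancer. Effects of the transgene, of the stock's other chromosomes and of a possible difference in driver copies cannot be told apart. The transgene's own transcript was not analysed here.

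DNMT3L is a mammalian cofactor of DNA methyltransferases without catalytic activity of its own, and its histone-binding domain recognises the tail of H3 where lysine 4 carries no methyl group. Flies have neither DNMT3L nor the DNA methyltransferases it partners in mammals. In flies H3K4 is methylated by complexes of the COMPASS family, each built on the catalytic subunit Set1, Trx or Trr and on a common core that includes Ash2. Set1 sets most of the trimethyl and dimethyl mark, Trr sets the monomethyl mark at enhancers, and Trx keeps Hox and other developmental genes active. Kdm5 removes the trimethyl mark, and Su(var)3-3, the fly LSD1, removes the lower states. No protein and no histone mark was measured, so every value below is a transcript level.

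Total counts per library lay between 17928420 and 18399526 in DNMT3L brains and between 18183491 and 19251845 in control brains. At this depth 3 counts correspond to 0.156 to 0.167 CPM (counts relative to library size), and the least abundant value of a member was 333 counts. Counting error was therefore small beside the spread between libraries, except for ash2, whose levels differed little between libraries. Nothing in the labels ties the libraries to separate animals, so that p-values cover the spread between these libraries alone, which may be technical. A pair of libraries stood apart. The median deviation of the 8 members from their mean over the 6 libraries was 0.77 on the log2 scale in DNMT3L 1, against −1.04 in control 1, while DNMT3L 2 and 3 were at 0.06 and 0.17 and control 2 and 3 at 0.18 and −0.19. The same deviations over all genes tested lay between −0.03 and 0.02. DNMT3L 1 held the highest level of 7 of the 8 members, and control 1 held the lowest level of the same 7. The members' fold changes are therefore also given without these libraries. For 7 members they were the highest DNMT3L and the lowest control library, so leaving them out lowers those 7 fold changes by construction. Such values describe how much rests on these libraries and are no independent test. Levels are given as the authors' FPKM, counts scaled to exonic length and to the library's total. FPKM allows a comparison between genes, but it does not remove a trend with length that differs between libraries, given below. Fold changes come from counts with TMM scaling, a scaling that assumes most genes to be equal between libraries.

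No member passed the test. edgeR's quasi-likelihood test called 0 of the 8 at a Benjamini-Hochberg adjusted p under 0.05, against 0.0% of the 9495 genes tested, and 0 of the 8 had an unadjusted p under 0.05, against 15.0% of all genes tested. DESeq2 called 0 of the 8, against 2.57% of genes, with ash1 alone at an unadjusted p under 0.05, against 19.4% of genes. limma on log2(FPKM + 1) called 0 of the 8, against 0.115% of genes, with ash1 and Utx at an unadjusted p under 0.05, against 16.6% of genes. Voom with sample quality weights called 0 of the 8, against 11.9% of genes, with the same 2 genes at an unadjusted p under 0.05, against 34.1% of genes. Fitted log2 fold changes of DNMT3L over control were positive for 7 members and negative for ash2, against 47.7% positive over all genes tested. Their median was 0.63, against −0.03 over all genes tested. The CPM ranges of the groups did not overlap for 2 of the 8, Set1 and Utx, or 25%, against 28.1% of all genes tested.

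**Figure D1:**
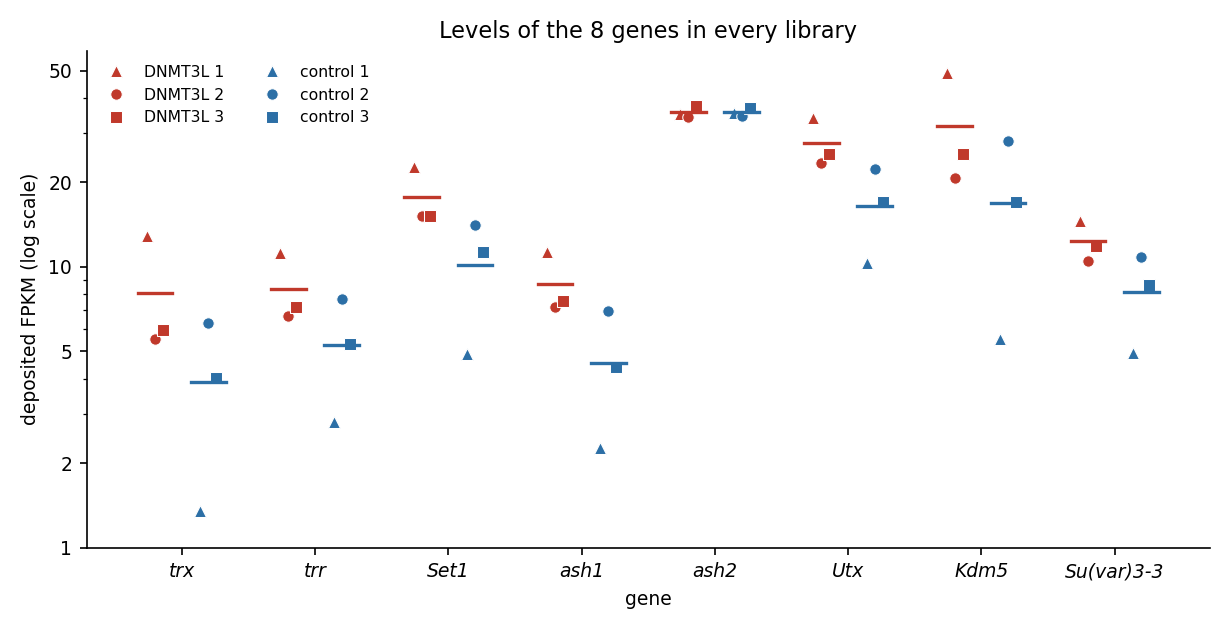
Deposited FPKM (log axis) of the 8 genes in each library, with DNMT3L libraries left of control libraries, symbols for replicate numbers and bars for group means. DNMT3L 1 is highest and control 1 lowest for every gene but ash2, whose 6 values lie between 34.3 and 37.3 FPKM.

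Of the 3 H3K4 methyltransferases, Set1 had the highest level. The gene lies on 3L at 25107594 to 25115180, plus strand (BDGP6), with 5555 exonic bases in 7 exons. Its FPKM was 22.71, 15.14 and 15.16 in DNMT3L libraries 1 to 3, against 4.90, 14.13 and 11.32 in control libraries 1 to 3. The groups did not overlap, though DNMT3L 2 and 3 lay close above control 2. The means were 17.7 ± 4.36 FPKM in DNMT3L and 10.1 ± 4.73 FPKM in control (SD, n = 3 each). Its fitted log2 fold change was 0.67 ± 0.35 (SE; 95% interval −0.17 to 1.52; edgeR adjusted p = 0.338). Without DNMT3L 1 and control 1 it was 0.15. Of its exonic bases, 257 overlap MED21 on the other strand. Whether counting used strand is not stated, so reads from there cannot be assigned with certainty.

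trx, the founding gene of the trithorax group, is the longest of the set, with 14052 exonic bases on 3R at 14263358 to 14286903, minus strand. Its FPKM was 12.85, 5.52 and 5.94 in DNMT3L libraries 1 to 3, against 1.35, 6.30 and 4.01 in control libraries 1 to 3. The groups overlapped, since control 2 lay above DNMT3L 2 and 3. The means were 8.10 ± 4.12 FPKM in DNMT3L and 3.89 ± 2.48 FPKM in control (SD, n = 3 each). The log2 fold change of 0.94 ± 0.55 (SE; 95% interval −0.37 to 2.26; edgeR adjusted p = 0.358) was numerically the largest of the 8. It was 0.57 without control 1, 0.42 without DNMT3L 1 and 0.05 without both. The antisense RNA gene CR46020, which shares 570 of its exonic bases, had at most 7 counts in any library. As the use of strand in counting is not stated, that count does not tell how many reads lie in the shared bases.

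trr, the enhancer methyltransferase, lies on X at 1881313 to 1889950, minus strand, with 8314 exonic bases. Its FPKM was 11.22, 6.69 and 7.17 in DNMT3L libraries 1 to 3, against 2.80, 7.69 and 5.32 in control libraries 1 to 3. Here too control 2 lay above DNMT3L 2 and 3. A log2 fold change of 0.53 ± 0.35 (SE; 95% interval −0.31 to 1.37; edgeR adjusted p = 0.386) was fitted, and it was 0.27 without control 1, 0.24 without DNMT3L 1 and −0.01 without both. Utx, which removes methyl groups from lysine 27 of H3 within the trr complex, lies on 2L at 10272325 to 10278811, minus strand, with 4418 exonic bases in 17 exons. Its FPKM was 33.77, 23.47 and 25.27 in DNMT3L libraries 1 to 3, against 10.31, 22.26 and 17.05 in control libraries 1 to 3. All DNMT3L libraries lay above all control libraries, with DNMT3L 2 and control 2 nearest. Its log2 fold change was 0.59 ± 0.26 (SE; 95% interval −0.04 to 1.22), with an unadjusted p of 0.0611, the lowest of the 8 and rank 1744 among the genes tested, and an edgeR adjusted p of 0.332. It was 0.39 without control 1, 0.40 without DNMT3L 1 and 0.21 without both.

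ash2, the core subunit, is the shortest member, with 2235 exonic bases on 3R at 24650125 to 24653376, plus strand. Its FPKM was 35.04, 34.27 and 37.25 in DNMT3L libraries 1 to 3, against 35.35, 34.55 and 36.80 in control libraries 1 to 3. The 2 groups covered almost the same narrow range, and control 1, the library with the lowest level of the other members, was in the middle of it. In CPM control 1 was highest, at 92.5. On the TMM-scaled count scale the means were 75 ± 2.42 CPM in DNMT3L and 84.8 ± 8.19 CPM in control (SD, n = 3 each). The log2 fold change was −0.18 ± 0.14 (SE; 95% interval −0.50 to 0.15; edgeR adjusted p = 0.434) with TMM scaling and −0.01 with scaling by total counts, a scaling that moved the median of all genes up by 0.16. Without both libraries that stood apart it was −0.11. The interval with all 6 libraries excludes a change of the size fitted for trx or ash1, 0.94 and 0.80.

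ash1 belongs to the trithorax group by its genetics, and its product methylates lysine 36 of H3. It lies on 3L at 19590773 to 19598755, minus strand, with 7615 exonic bases. Its FPKM was 11.30, 7.22 and 7.54 in DNMT3L libraries 1 to 3, against 2.27, 6.99 and 4.42 in control libraries 1 to 3. The groups did not overlap in FPKM but did in CPM, where DNMT3L 2 was at 52.2 and control 2 at 52.5. The fit gave a log2 fold change of 0.80 ± 0.37 (SE; 95% interval −0.08 to 1.68; edgeR adjusted p = 0.333). Without both libraries that stood apart it was 0.27, numerically the largest of the 8 in that comparison (edgeR adjusted p = 0.642).

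Kdm5, the trimethyl-H3K4 demethylase, varied most between libraries of the same group. It lies on 2L at 5989400 to 5999501, minus strand, with 7158 exonic bases. Its FPKM was 49.13, 20.67 and 25.32 in DNMT3L libraries 1 to 3, against 5.54, 28.00 and 17.05 in control libraries 1 to 3. Within groups the highest CPM was 2.39 times the lowest in DNMT3L and 4.26 times in control, while the fitted fold change between groups was 1.74. The log2 fold change was 0.80 ± 0.56 (SE; 95% interval −0.55 to 2.14; edgeR adjusted p = 0.408), and it was 0.41 without control 1, 0.31 without DNMT3L 1 and −0.07 without both. Su(var)3-3, which acts on the lower methyl states and is known from suppression of position-effect variegation, lies on 3L at 20226381 to 20230250, plus strand, with 3681 exonic bases. Its FPKM was 14.55, 10.53 and 11.90 in DNMT3L libraries 1 to 3, against 4.92, 10.82 and 8.60 in control libraries 1 to 3. Control 2 lay above DNMT3L 2, so the groups overlapped. Its log2 fold change of 0.46 ± 0.26 (SE; 95% interval −0.16 to 1.09; edgeR adjusted p = 0.354) was 0.10 without both libraries.

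Per length, the order of the mean levels was nearly the same in both groups. In DNMT3L brains the order of means was ash2, Kdm5, Utx, Set1, Su(var)3-3, ash1, trr and trx, with means falling in that order to 8.10 ± 4.12 FPKM for trx, and in control brains trr and ash1 changed places. Single libraries departed from it, and for genes of unlike length the order is limited by the length trend between libraries given below. The ratio of trx to ash2 was 0.367 in DNMT3L 1 and 0.0382 in control 1. ash2 was highest in 5 of 6 libraries, but in DNMT3L 1 Kdm5, at 49.13 FPKM, lay above ash2, at 35.04 FPKM, and trx, at 12.85 FPKM, lay above ash1 and trr. In DNMT3L 2 Utx, at 23.47 FPKM, lay above Kdm5, at 20.67 FPKM, and in control 1 Utx was also above Kdm5. ash2 was at 35.5 ± 1.55 FPKM in DNMT3L and 35.6 ± 1.14 FPKM in control. The neighbours Kdm5 and Utx did not differ beyond their spread in either group, at 31.7 ± 15.3 and 27.5 ± 5.5 FPKM in DNMT3L and 16.9 ± 11.2 and 16.5 ± 5.99 FPKM in control. By the SD of the groups the same held for ash1, trr and trx. They lay between 8.10 and 8.69 FPKM in DNMT3L and between 3.89 and 5.27 FPKM in control. Inside every control library, however, trr lay above ash1 and trx. In control libraries 1 to 3 ash1 over trr was 0.811, 0.909 and 0.831, and trx over trr 0.482, 0.819 and 0.754. In DNMT3L libraries 1 to 3 these ratios were 1.01, 1.08 and 1.05, and 1.15, 0.825 and 0.828. Of the genes tested, 74.9% had a lower mean FPKM than ash2 in DNMT3L and 76.2% in control, while 34.2% had a lower one than trx in DNMT3L and 25.1% in control.

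The fold changes of the members followed the length of their transcripts, as did those of all genes. Over the 8 members, Pearson's r between the log2 fold change and log2 exonic size was 0.87 and Spearman's rho 0.762, and over the 9495 genes tested these were 0.452 and 0.577. The points share the same 6 libraries, and no p-value goes with either. All genes tested with 8000 or more exonic bases, the class of trx and trr, had a median log2 fold change of 0.76, with 93.7% positive. The class from 4000 to 8000 bases, with Set1, ash1, Utx and Kdm5, had a median of 0.43. The class from 2000 to 4000 bases, with ash2 and Su(var)3-3, had a median of 0.07, and genes under 1000 bases had −0.41. Most of the slope rested on the libraries that stood apart. For genes of 8000 or more bases the median deviation was 1.01 in DNMT3L 1 and −1.27 in control 1. The median log2 fold change of that class was 0.45 without control 1 and 0.10 without both libraries. Without both, genes under 1000 bases had −0.04, so a small rise with length remained. As for the members, leaving out the extreme libraries flattens the slope by construction. Of each member's nearest neighbours in length, within 0.8 to 1.2 times its exonic size, the interquartile range of log2 fold changes ran from 0.54 to 1.11 for trx, 0.39 to 0.97 for trr, 0.37 to 0.91 for ash1 and 0.35 to 0.87 for Kdm5. The fold changes of these 4 members all lay inside those ranges, as did those of Set1, ash2 and Su(var)3-3 inside theirs, and Utx, at 0.59, lay marginally above the upper quartile of its range, also 0.59 after rounding.

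**Figure D2:**
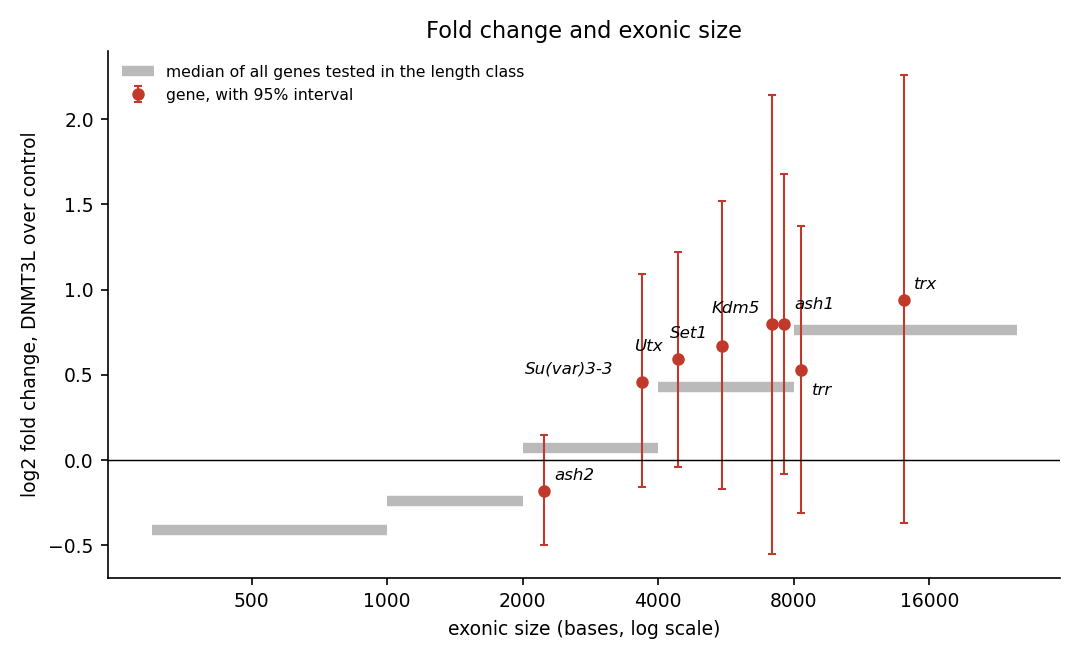
Fitted log2 fold change of DNMT3L over control, with 95% intervals, against exonic size (log axis) for the 8 genes, and the median of all genes tested in each of 5 length classes as grey bars. The genes and the grey bars both go up with length, from −0.18 for ash2 to 0.94 for trx and from −0.41 to 0.76 for the classes.

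Each library's trend of log2 deviation on length was also removed before the test. The 8 log2 fold changes then lay between −0.19 and 0.22, and their median was 0.18. None was called (edgeR adjusted p between 0.234 and 0.652), against 0.126% of all genes tested, and Spearman's rho with length was −0.286. With the trend removed the groups did not overlap for 4 of the 8, against 31.9% of all genes tested. These were Set1 at 0.20 ± 0.10, Utx at 0.22 ± 0.10 and ash1 at 0.15 ± 0.11 on the higher side, and trr at −0.19 ± 0.11 on the lower side (log2 fold change ± SE). The gene trr thus had a positive log2 fold change of 0.53 with the trend and a negative one without it. With the trend removed control 1 was no longer the lowest library for ash1, Utx and trr. Control 3 was lowest for ash1 at −0.24 and for Utx at −0.17, against a mean over 6 libraries. For trr control 1 became the highest, at 0.27, and the groups lay close, with DNMT3L 1 at −0.08 and control 3 at −0.05. Control 1 stayed lowest for trx, Set1, Kdm5 and Su(var)3-3.

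**Figure D3:**
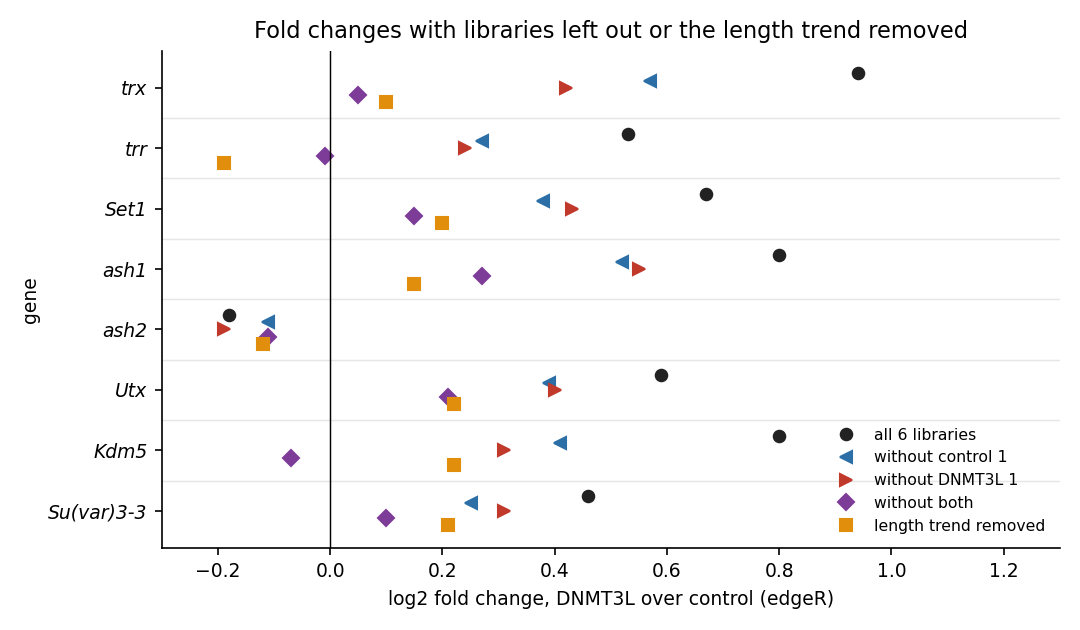
Log2 fold change of DNMT3L over control for the 8 genes with all 6 libraries, without control 1, without DNMT3L 1, without both and with the length trend removed. Values without both libraries run from −0.11 for ash2 to 0.27 for ash1, and with all libraries from −0.18 for ash2 to 0.94 for trx.

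Ratios between members inside a library do not depend on the scaling between libraries. Of 28 pairs of members, the ratio of FPKM did not overlap between groups for 5, or 17.9%, against 29.1% of the 45072765 pairs of all genes tested. The exact permutation test of 3 against 3 libraries cannot give a p under 0.1, and after adjustment over the 28 pairs the lowest p was 0.525. The ratio of ash1 to trr, which are close in length, was 1.01, 1.08 and 1.05 in DNMT3L libraries 1 to 3, against 0.811, 0.909 and 0.831 in control libraries 1 to 3. It averaged 1.05 ± 0.0364 in DNMT3L and 0.85 ± 0.0519 in control (SD, n = 3 each), and DNMT3L 1 and control 1 were each the lowest of their group. Utx over Su(var)3-3 averaged 2.22 ± 0.0988 in DNMT3L and 2.05 ± 0.0575 in control, also without overlap. The other 3 pairs without overlap were trx over trr, ash1 over ash2 and ash2 over Utx.

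The ratios of the remaining pairs ran from wide to narrow. ash2 over Kdm5 was 0.713, 1.66 and 1.47 in DNMT3L libraries 1 to 3, against 6.38, 1.23 and 2.16 in control libraries 1 to 3, with DNMT3L 1 and control 1 at the extremes. One of the narrow ones among the 28 pairs was trx over Kdm5. It was 0.262, 0.267 and 0.235 in DNMT3L libraries 1 to 3, against 0.244, 0.225 and 0.235 in control libraries 1 to 3. Both genes deviated alike from their means in log2 CPM, at 1.31 and 1.21 in DNMT3L 1 and at −1.64 each in control 1. How many pairs of all genes have so narrow a ratio was not tested. trr over Utx, 2 subunits of 1 complex, averaged 0.3 ± 0.0276 in DNMT3L and 0.31 ± 0.037 in control. Summed over genes, the methyltransferases trx, trr and Set1 came to 46.8, 27.4 and 28.3 FPKM in DNMT3L libraries 1 to 3, against 9.05, 28.1 and 20.6 FPKM in control libraries 1 to 3. The demethylases Kdm5 and Su(var)3-3 came to 63.7, 31.2 and 37.2 FPKM in DNMT3L, against 10.5, 38.8 and 25.6 FPKM in control. The ratio of the first sum to the second was 0.79 ± 0.0758 in DNMT3L and 0.798 ± 0.0707 in control (SD, n = 3 each), and the groups overlapped.

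**Figure D4:**
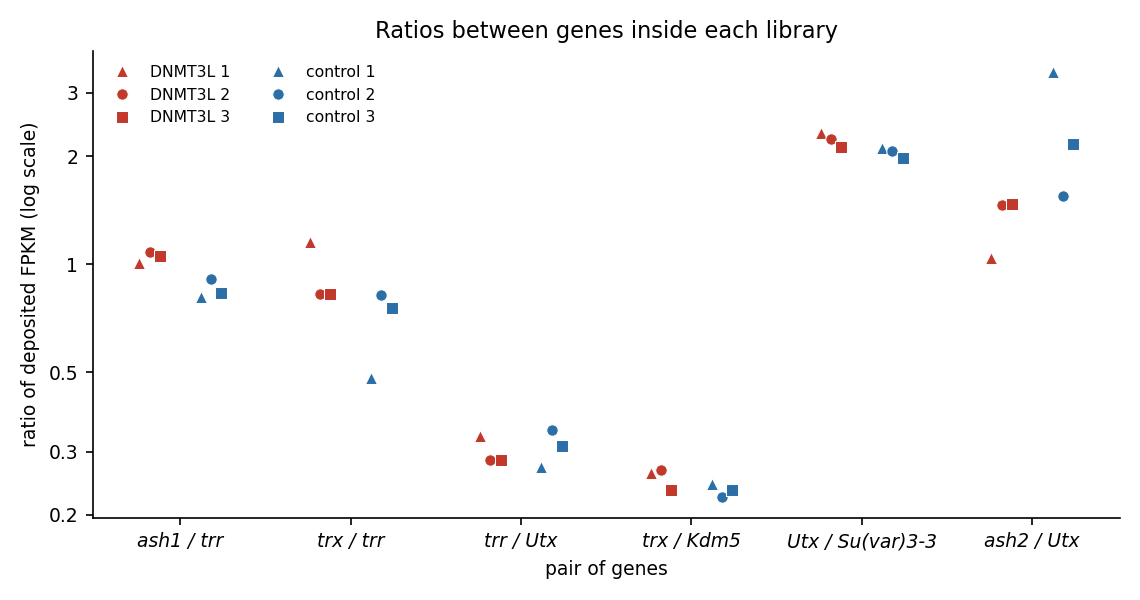
Ratio of deposited FPKM (log axis) for 6 pairs of the genes inside each library, with DNMT3L libraries left of control libraries and symbols for replicate numbers. For ash1 over trr all 3 DNMT3L libraries lie above all 3 control libraries, and for trx over Kdm5 all 6 libraries lie between 0.225 and 0.267.

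The partners of these enzymes also gave no call. Of 26 further genes of the pathway in 5 lists, 24 were tested, and edgeR called 0 (17 positive, 7 negative, median log2 fold change 0.17; over all genes tested 47.7% were positive). Of the 24, only atms, the fly Paf1, had an unadjusted p under 0.05, against 15.0% of all genes tested. Among the core subunits that the complexes share, Rbbp5 (−0.20 ± 0.18) and Dpy-30L1 (−0.20 ± 0.19) had negative and wds (0.14 ± 0.16) a positive log2 fold change (± SE), all 3 with under 2000 exonic bases. Hcf, with 8196 exonic bases, was placed in the same list, without a claim that every complex contains it. It was at 277 ± 37.2 CPM in DNMT3L and 198 ± 55.6 CPM in control, 0.49 ± 0.24 on the log2 scale (edgeR adjusted p = 0.334). Dpy-30L2 had 1 read over the 6 libraries. Of the subunits of the Set1 complex, Cfp1, which binds unmethylated CpG in mammals, was at 0.15 ± 0.16 and Wdr82 at −0.31 ± 0.19. Mnn1, the fly menin and a partner of Trx, was at 0.49 ± 0.32.

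Of the subunits of the trr complex, Ptip was at 63.1 ± 23.9 CPM in DNMT3L and 31.5 ± 15.0 CPM in control, without overlap. Its log2 fold change was 1.00 ± 0.44 (edgeR adjusted p = 0.332), and 0.32 without both libraries that stood apart. Ncoa6 was at 0.84 ± 0.58, Lpt, which carries PHD fingers that Trr lacks, at 0.20 ± 0.19, and the short gene Pa1 at −0.20 ± 0.17 (log2 fold change ± SE). Pa1 has 1628 exonic bases and Lpt 4608, while Ptip has 8068 and Ncoa6 10041. The partners of the erasers and of Ash1 had small values. CoRest, the partner of LSD1, was at 0.21 ± 0.18, the histone deacetylase gene HDAC1 at 0.08 ± 0.15, MRG15 at −0.19 ± 0.18 and Caf1-55 at −0.06 ± 0.14.

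H2B ubiquitylation and the Paf1 complex act ahead of H3K4 methylation by Set1. In this list 5 of 6 genes tested were positive, with a median log2 fold change of 0.22, and groups did not overlap for 3, against 47.7% positive and 28.1% without overlap over all genes tested. The ubiquitin ligase gene Bre1 was at 145 ± 16 CPM in DNMT3L and 111 ± 24.1 CPM in control, and the conjugating enzyme gene Ubc6 at 149 ± 3.16 CPM in DNMT3L and 115 ± 25.4 CPM in control. atms was at 98.5 ± 4.75 CPM in DNMT3L and 131 ± 17.0 CPM in control, which the fit put at −0.41 ± 0.15 on the log2 scale (edgeR adjusted p = 0.332), and this was −0.25 without both libraries that stood apart and −0.30 with the length trend removed. Atu, another Paf1 complex gene, is listed at 0 in every library, and all of its 2351 exonic bases overlap the antisense RNA gene CR46135, so its transcript level is not known from this table. Of the readers of the mark, E(bx), the large subunit of the NURF remodeller, was at 340 ± 132 CPM in DNMT3L and 181 ± 76.5 CPM in control (log2 fold change 0.91 ± 0.40; edgeR adjusted p = 0.332). Chd1 was at 0.49 ± 0.30 and pygo at 0.53 ± 0.27. Over the 12 genes under 3000 exonic bases in these 5 lists 5 were positive, and over the 9 with at least 4000 all 9 were, with medians of −0.12 and 0.49. With the length trend removed these medians were 0.08 and 0.03.

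**Figure D5:**
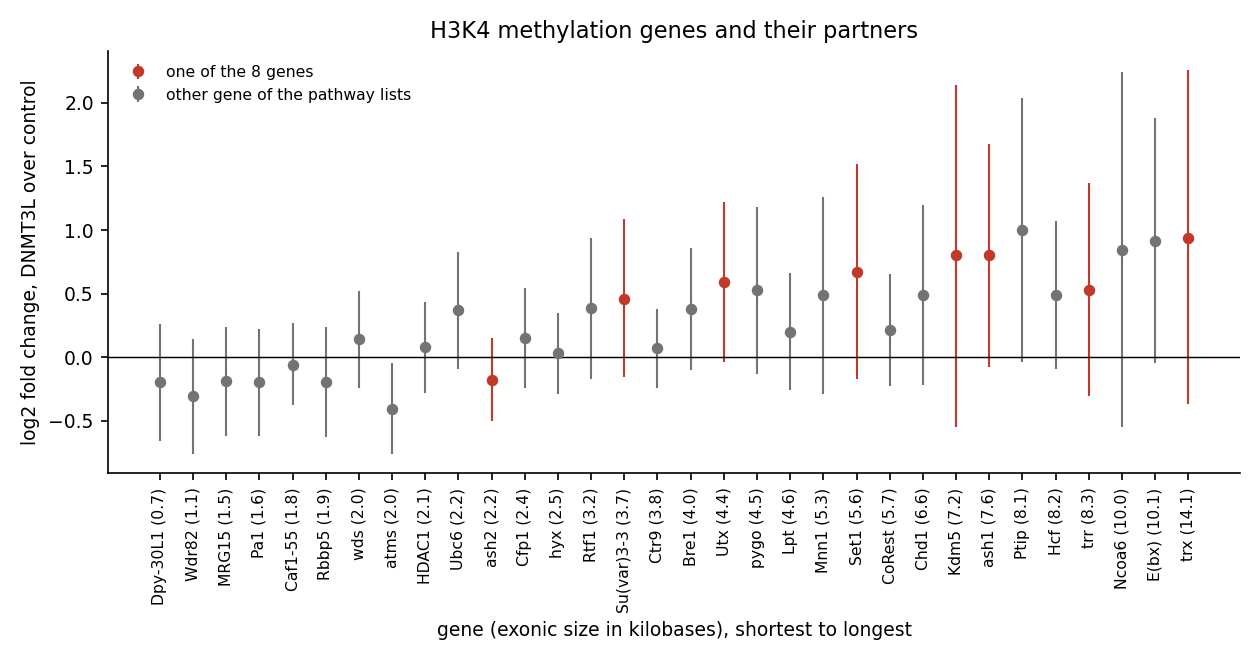
Log2 fold change of DNMT3L over control with 95% intervals for the 8 genes (red) and the 24 other pathway genes tested (grey), ordered from the shortest to the longest exonic size, given in kilobases beside each name. Values are mostly negative on the left and positive for every gene of at least 4000 bases, with atms (−0.41) the only interval that excludes 0.

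The Hox genes, whose active state Trx and Ash1 are known to maintain, were not called either, with 0 of 8. Their log2 fold changes were positive for 6 and negative for lab (−0.42 ± 0.34) and Dfd (−0.15 ± 0.27). Their median was 0.63 with all libraries and −0.17 without both libraries that stood apart. Scr was at 27.7 ± 15.9 CPM in DNMT3L and 14.8 ± 9.21 CPM in control, with a log2 fold change of 0.90 that was −0.05 when both were left out.

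Sums of markers also differed between libraries, and for some cell types the extremes were DNMT3L 1 and control 1. In bulk tissue fewer cells of a type and less RNA per cell cannot be told apart. All 10 neuron markers had positive log2 fold changes, against 47.7% of all genes tested. All 10 have over 4000 exonic bases, and most of them over 8000. Of all genes tested with 4000 to 8000 bases 84.8% were positive, and of those with 8000 or more 93.7%. With the length trend removed the median log2 fold change went from 1.34 to 0.78 for neuron and from 0.60 to 0.38 for neuroblast markers. For muscle markers it went from −1.25 to −1.08, and for hemocyte markers from −1.22 to −1.81. The summed level of the neuron markers was 1000 to 2185 CPM in DNMT3L libraries and 169 to 911 CPM in control libraries. It was lowest in control 1 and highest in DNMT3L 1. The 10 neuroblast markers were all positive too, with sums of 684 to 849 CPM in DNMT3L and 354 to 679 CPM in control and the same libraries at the extremes, and of 10 glia markers 7 were positive, with sums of 1339 to 1922 CPM in DNMT3L and 1453 to 1970 CPM in control. Of 13 muscle markers 10 were negative, with sums of 666 to 858 CPM in DNMT3L and 922 to 1324 CPM in control. Of 8 fat body markers 5 were negative, with sums of 868 to 1098 CPM in DNMT3L and 1299 to 2167 CPM in control. Cuticle sums were 78.1 to 325 CPM in DNMT3L and 291 to 1055 CPM in control (5 of 6 tested negative), and hemocyte sums 142 to 178 CPM in DNMT3L and 167 to 330 CPM in control (6 of 7 negative). Salivary gland sums were 29.4 to 216 CPM in DNMT3L and 14.9 to 62.6 CPM in control (7 of 7 positive), and disc and eye sums 190 to 250 CPM in DNMT3L and 275 to 338 CPM in control (6 of 7 negative). The muscle and cuticle sums were lowest in DNMT3L 1 and highest in control 1. The fat body, hemocyte and disc sums were highest in control 1 but lowest in DNMT3L 2 or DNMT3L 3. The glia sum was lowest in DNMT3L 1 and highest in control 3, and the salivary gland sum was lowest in control 2 and highest in DNMT3L 3. No marker was at 0 in every library, and edgeR called none. An unadjusted p under 0.05 was reached by 7 of 8 fat body, 6 of 7 hemocyte, 6 of 13 muscle, 4 of 10 neuroblast, 2 of 6 cuticle and 2 of 10 neuron markers, against 15.0% of all genes tested, and by no glia, salivary gland or disc marker. The 7 fat body markers were of both signs. Fbp2, a fat body gene opposite in sign to the 5 negative ones of its list, was at 20.4 ± 3.75 CPM in DNMT3L and 0.931 ± 0.527 CPM in control (log2 fold change 4.45 ± 0.49; edgeR adjusted p = 0.0794). It was called with the length trend removed (edgeR adjusted p = 0.0234) and without both libraries that stood apart (edgeR adjusted p = 0.0437). The salivary glue gene Sgs3, at 41.5 ± 32.9 CPM in DNMT3L and 10.6 ± 8.97 CPM in control, had an edgeR adjusted p of 0.332 with all libraries and was called without both (edgeR adjusted p = 0.0363). The part of these tissues in the members' values was not tested.

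Genes outside the set came close to the members' mean profile over the 6 libraries. Those named were taken as the nearest of many genes, so that near matches were bound to be found. How many genes lie as near as the members do was not tested. The 5 genes with the smallest root mean square difference from the members' mean profile of centred log2 CPM were CG31122 (0.019), egh (0.023), SPoCk (0.027), Svil (0.033) and app (0.040). Their log2 fold changes lay between 0.53 and 0.59. Of the members, trr was nearest to that profile, at 0.048, and ash2 farthest, at 0.625.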

How the data were processed

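Per the submitters' processing notes, the aligner HISAT2 2.0.1, the counter HTSeq 0.6.1, the trimmer cutadapt 1.9.1, bcl2fastq 2.17.1.14 and DESeq2 are named, and the builds are dm6 and BDGP6. No role, strand setting or annotation release is stated, and per the labels' protocols the libraries followed poly(A) isolation or rRNA removal. The authors deposited read counts per gene and FPKM for each library, and 100% of the deposited FPKM could be recomputed from count, exonic size and total count (tolerance 0.0051). Overlaps and exons come from Ensembl release 115, where 17465 of 17599 matched genes had the deposited coordinates.

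The deposited counts were tested with edgeR 4.0.16 in R 4.3.3 (filterByExpr, TMM, glmQLFit and glmQLFTest, two-sided, Benjamini-Hochberg over 9495 genes, threshold 0.05), with group as the only term. CPM are TMM-scaled. Standard errors are those implied by the F statistic. Alternatives used DESeq2 1.42.0, limma 3.58.1 (FPKM mean of at least 1), voom with sample quality weights, other scalings and filters, a replicate block, a loess length trend (span 0.5) and libraries left out. The edgeR step was tested on simulated data. Exact permutation tests used scipy 1.17.1. All members were named, every detected gene of lists with at most 8 genes could be, and the 5 genes most like the members were taken among profiles with a range of at least 0.5. Members and lists were chosen with earlier results of these data known.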

Additional observations from a re-analysis of the deposited data

How the results depend on the processing

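No member was called under any of the 17 alternatives, where the members' adjusted p lay between 0.057 (ash1, voom with sample quality weights) and 1. Over all genes, against 0 called by edgeR, DESeq2 called 267, size factors by relative log expression 2, total counts 1, no low-count filter 6, limma on log2(FPKM + 1) 10, with 0.1 as pseudocount 5, with no filter on low values 12, the removed length trend 12, voom with sample quality weights 1126 and the fit without both libraries numbered 1 16. Leaving out any 1 library gave 0 each time. Voom gave control 1 a weight of 0.167 and control 3 one of 6.29. Of the pathway and Hox genes it called 1, pb (log2 fold change 1.73), against 0. The other alternatives called 0 of them. The median log2 fold change of the members was 0.63, and 0.08 without both libraries numbered 1. Leaving out 1 library gave 0.36 to 0.89. Directions reversed for trr, at −0.19 with the length trend removed and −0.01 without both libraries numbered 1, and for Kdm5, at −0.07 without both. The other 6 members kept their direction in all 17 alternatives. The main fit used no pairing by replicate number. Deviations of same-numbered libraries from their group means correlated at −0.646, −0.532 and −0.17. These values cannot exclude a pairing, since DNMT3L 1 and control 1 deviated in opposite directions with length. With a replicate block 0 genes were called, and 458 had an unadjusted p under 0.05, against 1427 without it. Members had 333 to 6309 counts per library.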
